A study of Mus musculus with 20 samples.

Results

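The 9 genes described here encode enzymes of bile acid synthesis and conjugation. They were chosen by symbol, as the rows of the deposited table whose Ensembl identifier maps to Cyp7a1, Cyp8b1, Cyp27a1, Cyp7b1, Hsd3b7, Akr1d1, Slc27a5, Baat and Amacr, among 54532 genes in all. Of these 9 enzymes 8 passed the filter on low values and were tested, while Hsd3b7 did not pass and is described without a test.

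RNA sequencing covered 20 mouse libraries, all from C57BL/6 animals and all labelled as untreated: 2 of hepatocyte organoids (Hep-Org), 16 of liver after 70% partial hepatectomy (PHx) and 2 of undamaged liver. The PHx libraries were taken at 6, 12, 24, 48 and 72 h and at 7, 14 and 21 d after surgery, with 2 at each time. Hep-Org were grown in Matrigel and passaged. Undamaged liver and the first replicate of each PHx time were labelled as primary hepatocytes, and the second replicate of each PHx time as liver with no cell type, although the growth protocol speaks of freshly isolated hepatocytes for them. The sources used here state neither age nor sex. The labels do not say whether replicates came from separate animals or cultures, and p-values therefore reflect the spread between libraries, which may be technical.

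Recovered depth spanned 13.6 to 41.4 M reads (M, 1000000), computed from the FPKM values (fragments per kilobase of transcript per 1000000 mapped fragments). The 18 liver libraries had summed hepatocyte marker levels of 21328 to 76557 FPKM, also where the label gives no cell type. Some libraries stood apart. The first replicates of 6 h and 12 h held summed erythroid marker levels of 7089 and 6437 FPKM, against 12.4 to 581 FPKM in the other 16 liver libraries. The 6 libraries from 48 h to 7 d had 13.6 to 23.7 FPKM of Xist, the X-inactivation RNA, and 0 of the Y-linked Ddx3y, whereas the other 12 liver libraries had at most 0.137 FPKM of Xist and 9.66 to 21.4 FPKM of Ddx3y. In undamaged liver, the acute-phase transcript Saa1 stood at 19.9 FPKM in replicate 1 and at 20927 FPKM in replicate 2. In the same order these libraries had summed macrophage markers of 22.9 and 551 FPKM and cholangiocyte markers of 8.06 and 335 FPKM. Their endothelial markers summed to 13.3 and 105 FPKM, and all their FPKM to 469342 and 988797. In bulk RNA, fewer cells of a type and less RNA per cell cannot be told apart.

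Bile acids are made from cholesterol in hepatocytes by a classic route, which Cyp7a1 opens by hydroxylating the sterol ring, and by an alternative route, which Cyp27a1 opens on the side chain and Cyp7b1 continues on the ring. Cyp8b1 adds the hydroxyl group that separates cholic acid from the other primary bile acids, Hsd3b7 and Akr1d1 modify the ring, Amacr acts on the side chain, and Slc27a5 and Baat form the coenzyme A thioester and join it to an amino acid. Bile acids restrain the pathway through the nuclear receptor Nr1h4 (FXR) and its target Nr0b2 (SHP), and through the receptor Fgfr4 with its partner Klb.

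Promoter sequence is shown for Cyp8b1 and Akr1d1, the enzymes whose promoters held a searched motif among the 4 of 9 matched in the RefSeq promoter table (GRCm38.p6, 250 bases before to 50 after the start). Capitals mark motifs found in a search of both strands: CAAGGNCA, the type bound by Nr5a2 (LRH-1), AGGTCA, a nuclear receptor core motif read here as TGACCT on the opposite strand, and TATAAA. The Cyp8b1 promoter lies at chr9:121916256-121916555 on the minus strand and the Akr1d1 promoter at chr6:37529923-37530222 on the plus strand.
Cyp8b1: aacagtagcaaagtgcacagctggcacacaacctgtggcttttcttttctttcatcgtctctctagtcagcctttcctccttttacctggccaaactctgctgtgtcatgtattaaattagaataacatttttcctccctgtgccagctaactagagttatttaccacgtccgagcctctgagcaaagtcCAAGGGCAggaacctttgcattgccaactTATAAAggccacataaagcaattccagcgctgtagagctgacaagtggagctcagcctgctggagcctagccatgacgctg
Akr1d1: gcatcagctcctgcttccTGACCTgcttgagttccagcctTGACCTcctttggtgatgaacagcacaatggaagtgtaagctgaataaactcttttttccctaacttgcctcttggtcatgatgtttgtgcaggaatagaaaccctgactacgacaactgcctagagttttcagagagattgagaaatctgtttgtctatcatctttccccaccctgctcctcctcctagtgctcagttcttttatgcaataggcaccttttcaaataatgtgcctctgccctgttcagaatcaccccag
In Cyp8b1 the first motif began at base 191 as CAAGGGCA and TATAAA at base 220. In Akr1d1 the AGGTCA matches began at bases 19 and 41. Of 27025 promoters of this length in the table, 6.672% hold CAAGGNCA, 16.04% AGGTCA and 14.16% TATAAA. The E-box CACGTG was also searched, and 7.241% of all promoters hold it. These matches describe letters in the window and nothing about binding.

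Levels are given in FPKM, from 18 liver and 2 Hep-Org libraries. Cyp7a1, the rate-limiting enzyme of the classic route (ENSMUSG00000028240, minus strand of chromosome 4, 6265612 to 6275633 in GRCm38), was listed at 0 in both Hep-Org libraries. Undamaged liver had 13.8 and 40.7 FPKM, the 6 h libraries 0.0369 and 0.868 FPKM, and the 12 h libraries 1.59 and 0.245 FPKM. The 24 h libraries held 0.164 and 40.1 FPKM. Over 48 h to 7 d the lowest, median and highest of 6 libraries were 0.831, 17.0 and 49.7 FPKM, and the 4 libraries of 14 and 21 d held 61.2, 15.5, 70.1 and 23.9 FPKM. The 6 h and 12 h libraries were thus lower than every library of undamaged liver and of 14 to 21 d, and 24 h and 48 h each joined a low and a high library. In the order of group means, 21 d came first, then 14 d, undamaged, 72 h, 48 h, 24 h and 7 d, then 12 h, 6 h and Hep-Org. The libraries of neighbouring groups were apart only between 7 d and 12 h and between 6 h and Hep-Org.

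Cyp8b1 (ENSMUSG00000050445, minus strand of chromosome 9, 121914356 to 121916305) was also listed at 0 in both Hep-Org libraries. It had 211 and 122 FPKM in undamaged liver, 35.5 and 38.2 FPKM at 6 h, and 19.5 and 38.5 FPKM at 12 h. At 24 h the libraries held 0.561 and 134 FPKM, the widest gap of any time for this gene. The 6 libraries of 48 h to 7 d spanned 2.12 to 91.5 FPKM, median 18.3 FPKM, and those of 14 and 21 d held 40.1, 87.4, 66.7 and 132 FPKM. Undamaged liver had the highest mean and 72 h the lowest among liver groups, and no pair of neighbours in the order of means was apart except 72 h and Hep-Org.

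Cyp27a1, which starts the alternative route in mitochondria (ENSMUSG00000026170, plus strand of chromosome 1, 74713574 to 74737892), stayed within a narrower span. Hep-Org had 5.90 and 5.42 FPKM and undamaged liver 303 and 353 FPKM. Values were 158 and 79.2 FPKM at 6 h, 83.3 and 169 FPKM at 12 h, and 98.8 and 159.7 FPKM at 24 h. Those of 48 h to 7 d spanned 83.5 to 237 FPKM, median 129.8 FPKM, and the 14 and 21 d libraries held 214, 256, 196 and 244 FPKM. Undamaged liver stood above every PHx library, the 8 PHx times overlapped their neighbours, and Hep-Org lay below them all.

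Cyp7b1, the oxysterol hydroxylase of the alternative route (ENSMUSG00000039519, minus strand of chromosome 3, 18071950 to 18243338), had 0.0634 and 0.199 FPKM in Hep-Org and 187 and 725 FPKM in undamaged liver. It held 152 and 133 FPKM at 6 h and 179 and 106 FPKM at 12 h, the times at which Cyp7a1 was at most 1.59 FPKM. The 24 h libraries had 6.85 and 176 FPKM. In the 6 libraries from 48 h to 7 d the lowest, median and highest values were 5.51, 8.22 and 15.8 FPKM, and at 14 and 21 d the values were 59.1, 121, 316 and 150.1 FPKM. All 6 libraries of 48 h to 7 d were below all libraries of 6, 12, 14 and 21 d and undamaged liver. In the order of means the neighbours 14 d and 7 d were apart, and 72 h and Hep-Org were apart.

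Among the ring enzymes, Hsd3b7 (ENSMUSG00000042289, plus strand of chromosome 7, 127800604 to 127803802) had at most 0.482 FPKM in any library and 0.370 and 0.265 FPKM in undamaged liver, from 21 and 8 recovered reads. It was listed at 0 in 8 of 20 libraries, Hep-Org replicate 1 and 7 of the 8 second replicates after PHx, and the exception, 48 h replicate 2, held the 0.482 FPKM. Of its 2769 exon bases, 2746 are shared with Gm49388 or 9430064I24Rik in GENCODE M21, and 23 are its own. With no counting rule stated in the sources used here, these low values cannot be read as absence of the transcript, and no neighbours in its order of means were apart. Akr1d1, the reductase that fixes the bend between the first rings of the sterol (ENSMUSG00000038641, plus strand of chromosome 6, 37530173 to 37568815), had 0.0791 and 0.272 FPKM in Hep-Org and 71.9 and 11.5 FPKM in undamaged liver. It held 3.87 and 12.3 FPKM at 6 h, 2.50 and 6.87 FPKM at 12 h, and 39.8 and 11.2 FPKM at 24 h. Libraries of 48 h to 7 d spanned 24.5 to 51.5 FPKM, median 44.8 FPKM, and the 14 and 21 d libraries held 76.6, 51.6, 88.2 and 52.6 FPKM. Every 14 and 21 d library was above every earlier PHx library, while undamaged replicate 2 lay among the 6 to 24 h values. The group means placed 21 d and 14 d first and 12 h last among liver groups, with neighbours apart between 14 d and 7 d and between 12 h and Hep-Org.

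Slc27a5, the bile acid coenzyme A ligase (ENSMUSG00000030382, minus strand of chromosome 7, 12988346 to 12998192), reached the highest mean level per length of the 9 enzymes in undamaged liver and at 14 to 21 d. Hep-Org had 0.854 and 0.943 FPKM, and undamaged liver 541 and 614 FPKM. The values were 90.0 and 142 FPKM at 6 h, 138 and 216 FPKM at 12 h, and 183 and 241 FPKM at 24 h. The 48 h to 7 d libraries spanned 149 to 449 FPKM, median 202 FPKM, and at 14 and 21 d they were 342, 367, 534 and 361 FPKM. Undamaged liver was above every PHx library, and the mean was lowest at 6 h among liver groups. Neighbours in the order were apart at 4 of 9 steps: undamaged and 21 d, 14 d and 24 h, 48 h and 6 h, and 6 h and Hep-Org.

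Baat, which joins the bile acid to taurine or glycine (ENSMUSG00000039653, minus strand of chromosome 4, 49489422 to 49506557), had 2.29 and 3.96 FPKM in Hep-Org and 142 and 72.9 FPKM in undamaged liver. It stood at 147 and 140.0 FPKM at 6 h, 151 and 184 FPKM at 12 h, and 103 and 95.6 FPKM at 24 h. The 48 h to 7 d libraries spanned 47.9 to 92.8 FPKM, median 67.6 FPKM, and those of 14 and 21 d held 162, 142, 141 and 145 FPKM. The 48 h to 7 d libraries were below every other PHx library, but not below undamaged replicate 2. Its mean was highest at 12 h and lowest at 48 h among liver groups, and neighbours were apart between 24 h and 7 d, 72 h and 48 h, and 48 h and Hep-Org.

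Amacr, the racemase of the side chain (ENSMUSG00000022244, plus strand of chromosome 15, 10981756 to 10996626), had 2.19 and 3.48 FPKM in Hep-Org and 47.6 and 23.6 FPKM in undamaged liver. All 16 PHx libraries fell within 21.8 to 65.1 FPKM, the highest being 21 d replicate 1. In the order of means the neighbours 24 h and 72 h were apart, as were 6 h and Hep-Org, while undamaged replicate 1 lay among the values of 14 and 24 h.

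**Figure D1:**
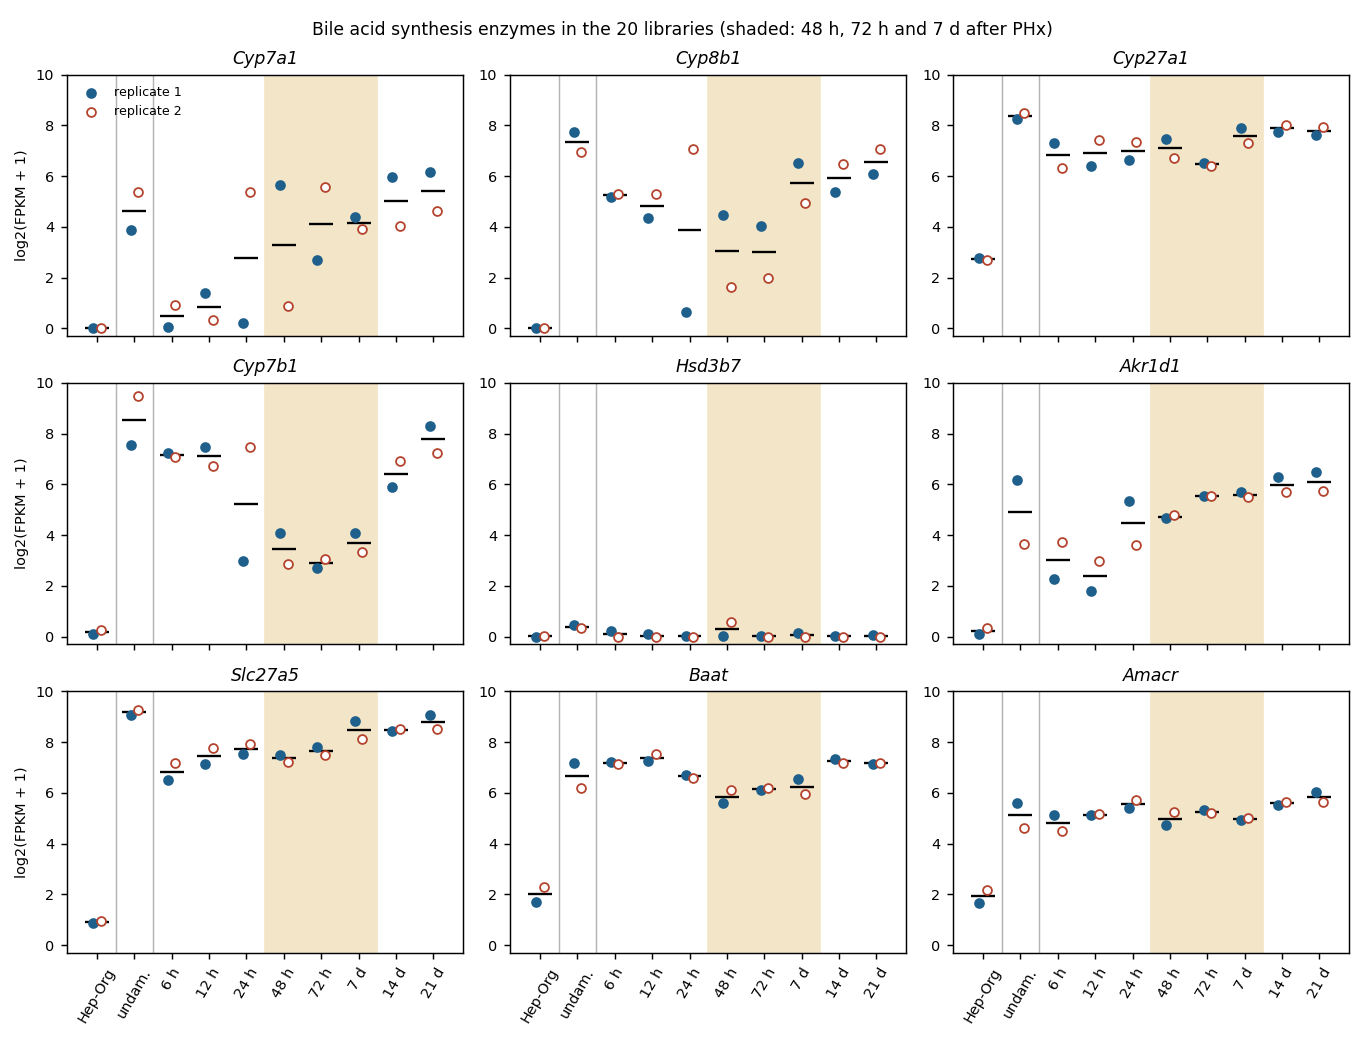
Level of each of the 9 enzymes in every library, as log2(FPKM + 1) on the vertical axis, for Hep-Org, undamaged liver and the 8 times after PHx; filled points are replicate 1, open points replicate 2, bars the mean of both, and the shaded times are 48 h to 7 d. Cyp7a1 and Akr1d1 are lowest among liver groups at 6 and 12 h, Cyp7b1 within the shaded times, and every tested enzyme, which leaves out Hsd3b7, has its lowest mean in Hep-Org.

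The sum of the 9 levels was 11.4 and 14.3 FPKM in Hep-Org. It was 1518 and 1964 FPKM in undamaged liver, 568 to 755 FPKM at 6 and 12 h, 474 and 910 FPKM at 24 h, 394 to 987 FPKM from 48 h to 7 d, and 1000.2 to 1478 FPKM at 14 and 21 d. In these sums every library from 6 h to 7 d was below every library of undamaged liver and of 14 and 21 d. As a share of all FPKM in a library, those of 6 h to 7 d stayed below 14 and 21 d (0.232% to 0.331%). By that share 24 h replicate 2 (0.212%) and 7 d replicate 1 (0.209%) were above undamaged replicate 2 (0.199%).

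Over the 8 times after PHx, 3 of the 8 tested enzymes were called, that is, had an adjusted p under 0.05 and fitted means at least 1 apart on the log2 scale (limma's moderated F test on log2(FPKM + 1), Benjamini-Hochberg adjustment over 13162 genes). The background of all tested genes called in this way was 9.51%. The range of fitted means was 4.88 for Cyp7b1 (adjusted p = 0.0393), 3.72 for Akr1d1 (adjusted p = 0.0353) and 1.95 for Slc27a5 (adjusted p = 0.0474), all from limma. Baat had a range of 1.54 and did not pass (adjusted p = 0.0651). With 6, 12 and 24 h and 14 and 21 d only, which leaves out the 6 libraries high in Xist, the Cyp7b1 range was 2.55 and was not called (adjusted p = 0.561 in limma). Akr1d1 (adjusted p = 0.0635 in limma) and Slc27a5 (adjusted p = 0.0568) also lost their calls there, with ranges still at 3.72 and 1.95. The median range over the 8 enzymes was 2.75, against 0.90 over all tested genes. The calls were close to the threshold: leaving out single libraries ended that of Cyp7b1 for 16 of 20, of Akr1d1 for 15 and of Slc27a5 for 17, with adjusted p up to 0.0926, 0.103 and 0.123 in that order, and none of the 3 was called without the first replicates of 6 h and 12 h.

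At 6 to 12 h after PHx, Cyp7a1, Akr1d1 and Slc27a5 were lower than at 14 to 21 d. Cyp7a1 averaged 0.685 ± 0.699 FPKM (SD, n = 4) at 6 to 12 h, and 42.7 ± 27.0 FPKM (SD, n = 4) at 14 to 21 d, a mean 62.3-fold lower. Akr1d1 averaged 6.39 ± 4.37 FPKM at 6 to 12 h, and 67.3 ± 18.1 FPKM at 14 to 21 d, 10.5-fold lower. Slc27a5 averaged 146 ± 51.8 FPKM at 6 to 12 h and 401 ± 89.4 FPKM at 14 to 21 d, 2.74-fold lower. Baat and Cyp7b1 stood at 155 ± 19.6 and 142 ± 30.6 FPKM at 6 to 12 h, against 147 ± 9.75 and 161 ± 109.9 FPKM at 14 to 21 d. So against 14 to 21 d the mean of Cyp7a1 was far lower at 6 to 12 h, and that of Cyp7b1 was similar. Against undamaged liver Cyp7b1 was lower too, at a mean of 142 against 456 FPKM. Every 6 to 12 h library was below both undamaged libraries, but the limma difference of -1.51 was not called. Cyp7a1 was at 3 to 147 recovered reads per library at 6 to 12 h, and Cyp7b1 at 6405 to 8576. These reads are not adjusted for exon length or depth, and no test compared Cyp7a1 with Cyp7b1.

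The limma differences on the log2(FPKM + 1) scale (6 to 12 h minus 14 to 21 d) were -4.54 for Cyp7a1 (SE 1.18, adjusted p = 0.0136), -3.35 for Akr1d1 (SE 0.55, adjusted p = 0.00128) and -1.49 for Slc27a5 (SE 0.28, adjusted p = 0.00263). These were 3 of 8 tested enzymes called lower and none called higher, and 7.07% of all tested genes were called lower. The median difference was -1.09 over the 8 enzymes and 0.03 over all tested genes. Cyp27a1 had an adjusted p of 0.0449 at a limma difference of -0.97, short of the size threshold. Amacr at -0.73 (adjusted p = 0.051), Cyp8b1 at -1.21 (adjusted p = 0.443), Baat at 0.07 (adjusted p = 0.875) and Cyp7b1 at 0.04 (adjusted p = 0.976) did not pass in limma. Every 6 to 12 h library was below every 14 to 21 d library for 6 enzymes (Cyp7a1, Cyp8b1, Cyp27a1, Akr1d1, Slc27a5 and Amacr), as for 16.4% of all tested genes.

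Within the first submission the difference was -5.34 for Cyp7a1, -4.33 for Akr1d1 and -1.93 for Slc27a5, and within the second -3.73, -2.37 and -1.05 in the same order of genes. Summed erythroid markers were at 136 to 7089 FPKM at 6 to 12 h, against 36.8 to 168 FPKM at 14 to 21 d, with 4 of 5 called higher. Hepatocyte markers summed to 21328 to 39452 FPKM at 6 to 12 h and to 43738 to 76557 FPKM at 14 to 21 d, with 1 of 8 called lower. Their part in the result was not tested. Without the first replicates of 6 h and 12 h, which hold the most erythroid transcripts, Akr1d1 was still called at -2.43 (adjusted p = 0.0185) and Slc27a5 at -1.05 (adjusted p = 0.0239), and Cyp7a1 lost its call at -4.54 (adjusted p = 0.0688). Cyp7a1 also lost it without 14 d replicate 1 (adjusted p = 0.0631) or 21 d replicate 1 (adjusted p = 0.0576), and with limma-voom on the recovered reads (adjusted p = 0.0586).

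Against undamaged liver, Slc27a5 and Cyp27a1 were called lower at 6 to 12 h. Slc27a5 averaged 146 ± 51.8 FPKM at 6 to 12 h (SD, n = 4), and 577 ± 51.2 FPKM in undamaged liver (SD, n = 2), a limma difference of -2.03 (SE 0.36, adjusted p = 0.00562). Cyp27a1 averaged 122 ± 47.8 FPKM at 6 to 12 h and 328 ± 35.9 FPKM in undamaged liver, a limma difference of -1.48 (SE 0.42, adjusted p = 0.0384). These were 2 of 8 enzymes, beside 6.02% of all tested genes called lower, and the median was -1.77 over the enzymes and 0.03 over all. Cyp7a1 at -3.92 (SE 1.51, adjusted p = 0.107), Cyp8b1 at -2.50 (adjusted p = 0.269), Akr1d1 at -2.18 (adjusted p = 0.0605) and Cyp7b1 at -1.51 (adjusted p = 0.35) did not pass in limma. Slc27a5 kept its call under every alternative and with any library left out. Akr1d1 was called without undamaged replicate 2 (-3.45, adjusted p = 0.0159 in limma). The call of Cyp27a1 ended for 14 of 20 libraries left out, with adjusted p up to 0.125. Every 6 to 12 h library was below both undamaged libraries for 5 enzymes (Cyp7a1, Cyp8b1, Cyp27a1, Cyp7b1 and Slc27a5), as for 16.8% of all tested genes. Since undamaged liver was sequenced in the first submission alone, the within-submission values come from that one, at -2.36 for Slc27a5 and -1.50 for Cyp27a1. Erythroid markers summed to 136 to 7089 FPKM at 6 to 12 h and to 39.1 and 32.1 FPKM in undamaged liver, with 4 of 5 called higher and a median difference of 6.27. Hepatocyte markers summed to 21328 to 39452 FPKM at 6 to 12 h and to 67078 and 74236 FPKM in undamaged liver, with 1 of 8 called lower and a median of -1.24. Their part in the result was not tested. The comparisons with undamaged liver share its 2 libraries, and those with 14 to 21 d share its 4.

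At 24 h the pair of libraries disagreed for the hydroxylases. Cyp7a1 differed 245-fold between replicate 2 and replicate 1, and Cyp8b1 239.7-fold, both higher in replicate 2. Cyp7b1 differed 25.7-fold in the same direction. Of all tested genes, 0.0760% had replicates as far apart at 24 h as Cyp7a1 on the log2 scale, 0.0304% as far apart as Cyp8b1 and 0.160% as far apart as Cyp7b1. Akr1d1 went the other way, 3.55-fold higher in replicate 1. Slc27a5, Baat, Amacr and Cyp27a1 were closer, since 30.7%, 72.4%, 41.7% and 13.8% of tested genes were at least as far apart in that order. Wide gaps were not limited to 24 h. At 48 h Cyp7a1 differed 59.8-fold (0.0380% of tested genes as far apart) and Cyp8b1 10.1-fold (0.289%), both higher in replicate 1. At 72 h Cyp7a1 differed 8.52-fold (0.122%), higher in replicate 2.

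In the same 24 h libraries Nr0b2, the repressor that acts on the Cyp7a1 and Cyp8b1 promoters, had 196 FPKM in replicate 1 and 18.6 FPKM in replicate 2. The 196 FPKM were the highest of all 20 libraries, the next being 71.1 FPKM at 21 d. Other pairs were mixed. At 21 d replicate 1 held more Nr0b2 than replicate 2 (71.1 against 29.3 FPKM) and more Cyp7a1 (70.1 against 23.9 FPKM). At 48 h, at 72 h and in undamaged liver the library with more Nr0b2 had less Cyp7a1. At 72 h that library had more Cyp8b1 (15.3 against 2.97 FPKM). At 24 h Dbp, a transcription factor of the circadian clock output that acts on Cyp7a1, had 7.72 FPKM in replicate 1 and 0.741 FPKM in replicate 2. Over the series Dbp ran from 0.0492 to 20.6 FPKM, with the highest values in replicate 1 of 14 d and of 21 d, also the libraries highest in Cyp7a1. The next highest in Cyp7a1 were 48 h replicate 1 (49.7 FPKM), 72 h replicate 2 (46.0 FPKM) and undamaged replicate 2 (40.7 FPKM). In these Dbp stood at 0.432, 6.85 and 0.184 FPKM, in that order. The sources used here do not state the time of day of sampling, and the part of these regulators in the replicate gaps was not tested.

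**Figure D2:**
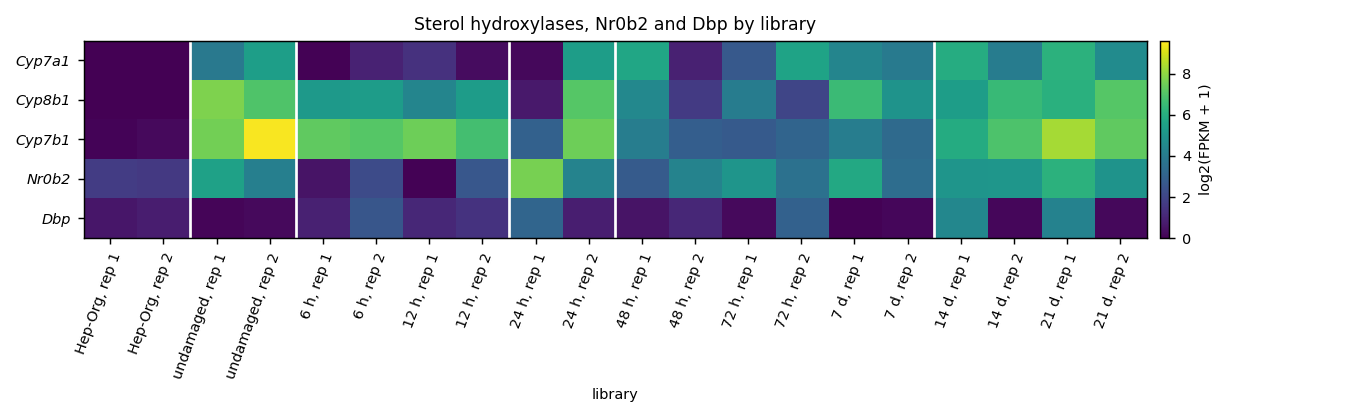
Heat map of log2(FPKM + 1) for Cyp7a1, Cyp8b1, Cyp7b1, Nr0b2 and Dbp in each of the 20 libraries, from Hep-Org and undamaged liver to 21 d after PHx. At 24 h replicate 1 is low in the 3 hydroxylases and high in Nr0b2 (196 FPKM), and replicate 2 is high in the hydroxylases with Nr0b2 at 18.6 FPKM.

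No enzyme was called at 24 h. Against 14 to 21 d, 0 of 8 passed in limma, 2 had an unadjusted p under 0.05, limma-voom called 0, and 0.038% of all tested genes were called in either direction. The medians were -1.24 over the enzymes and 0.00 over all tested genes. Within the first submission the 24 h minus 14 to 21 d difference was -5.84 for Cyp7a1, -5.08 for Cyp8b1 and -4.14 for Cyp7b1, and within the second 1.02, 0.32 and 0.39 in the same order. Against undamaged liver 0 of 8 passed in limma, 4 had an unadjusted p under 0.05 and limma-voom called 0, with 0 of all tested genes called (0%). Its medians were -1.41 over the enzymes and -0.01 over all tested genes. Without 24 h replicate 2, Cyp8b1 at -6.70 (adjusted p = 0.0444) and Cyp7b1 at -5.56 (adjusted p = 0.0230) were called lower than undamaged liver in limma, with replicate 1 as the only 24 h library and assumed to vary like the other groups.

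From 48 h to 7 d, Cyp7b1 was the enzyme called lower. It averaged 9.99 ± 4.68 FPKM (SD, n = 6) from 48 h to 7 d, against 161 ± 109.9 FPKM at 14 to 21 d (SD, n = 4) and 456 ± 381 FPKM in undamaged liver (SD, n = 2), which made the mean 16.2-fold and 45.6-fold lower. The limma difference was -3.74 against 14 to 21 d (SE 0.71, adjusted p = 0.0303) and -5.29 against undamaged liver (SE 0.94, adjusted p = 0.0193). Against 14 to 21 d this was 1 of 8 enzymes, with 0.395% of all tested genes called lower and medians of -0.96 over the enzymes and -0.01 over all. Against undamaged liver it was likewise 1 of 8, with 0.539% of all tested genes called lower and medians of -1.02 and -0.03. Cyp7b1 was lower than 14 to 21 d in both submissions, at -3.49 in the first and -3.99 in the second. Its call against 14 to 21 d ended for 10 of 20 libraries left out (adjusted p up to 0.227). The call against undamaged liver ended without 72 h replicate 1 (adjusted p = 0.0643) or undamaged replicate 2 (-4.32, adjusted p = 0.0951).

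Baat averaged 68.2 ± 14.8 FPKM from 48 h to 7 d and 147 ± 9.75 FPKM at 14 to 21 d, 2.16-fold lower, at a limma difference of -1.13 (SE 0.24, adjusted p = 0.0647) that did not pass. Baat was called without 7 d replicate 1 (-1.24, adjusted p = 0.0364 in limma). It was -1.16 within the first submission and -1.09 within the second. Cyp8b1 at -2.31 (adjusted p = 0.338), Cyp7a1 at -1.35 (adjusted p = 0.594), Akr1d1 at -0.76 (adjusted p = 0.522) and Amacr at -0.64 (adjusted p = 0.259) did not pass against 14 to 21 d in limma. All 6 libraries of 48 h to 7 d were below all 4 of 14 to 21 d for Cyp7b1, Akr1d1, Baat and Amacr, 4 enzymes, as for 4.05% of all tested genes. Against both undamaged libraries they were below for Cyp8b1, Cyp27a1, Cyp7b1 and Slc27a5, also 4, as for 11.3%. Slc27a5 stood at -1.34 against undamaged liver (adjusted p = 0.0902) in limma.

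The 6 libraries of 48 h to 7 d had Xist at 13.6 to 23.7 FPKM and Ddx3y at 0. They were put in a window together because earlier results of these data had shown this shared pattern. In mouse liver Cyp7b1 is known to be higher in males than in females. Time after PHx and the sex-linked pattern cannot be told apart in these libraries, for Cyp7b1 or for any other enzyme. Of 5 sex-linked transcripts 1 was called higher and 3 lower in this window against undamaged liver, which its choice by this pattern fixed in advance. Summed macrophage markers were at 140.0 to 721 FPKM from 48 h to 7 d and at 128 to 255 FPKM at 14 to 21 d. Hepatocyte markers summed to 28144 to 74050 FPKM from 48 h to 7 d and to 43738 to 76557 FPKM at 14 to 21 d. Their median difference was -0.75 against undamaged liver and -0.46 against 14 to 21 d, with 0 of 8 called in both. The part of these markers was not tested.

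The share of Cyp7a1 in the summed level of Cyp7a1 and Cyp7b1 followed from both patterns. It was 5.32% and 6.89% in undamaged liver, 0.0243% to 0.882% at 6 to 12 h, and 2.34% and 18.5% at 24 h. It spanned 11.6% to 86.1% over 48 h to 7 d (median 58.4%), and 11.4% to 50.9% at 14 to 21 d. All 6 to 12 h libraries lay below all other liver libraries. The 48 h to 7 d range overlapped that of 14 to 21 d.

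**Figure D3:**
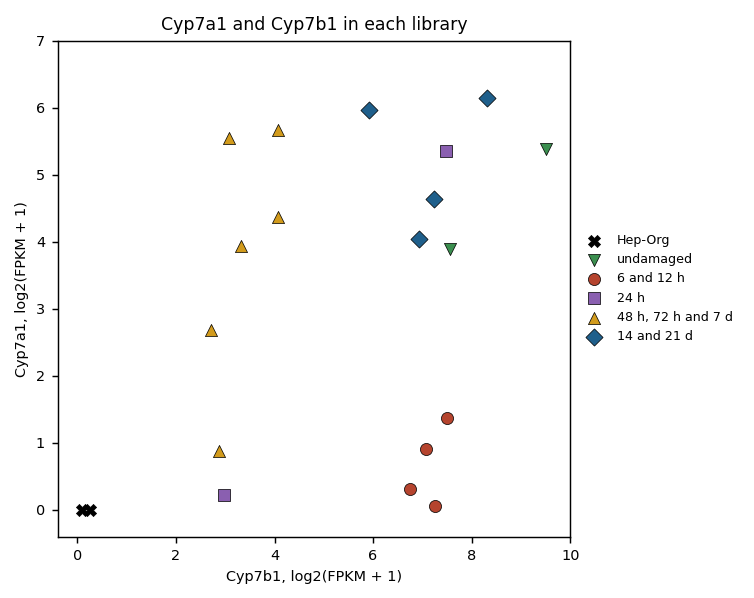
Cyp7a1 against Cyp7b1 in each library, both as log2(FPKM + 1), coloured by window. The 4 libraries of 6 to 12 h lie at high Cyp7b1 and low Cyp7a1, the 6 of 48 h to 7 d at low Cyp7b1 (5.51 to 15.8 FPKM) with Cyp7a1 spread from 0.831 to 49.7 FPKM, and Hep-Org near 0 for both.

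At 14 to 21 d no enzyme differed from undamaged liver by the limma test: 0 of 8 were called, 0 had an unadjusted p under 0.05, limma-voom called 0, and 0 of all tested genes were called (0%). The median difference was 0.01 over the enzymes and -0.01 over all tested genes. Single differences reached -1.55 for Cyp7b1 and -1.29 for Cyp8b1, and 1.17 for Akr1d1 and 0.62 for Cyp7a1. The 2 undamaged libraries were 3.89-fold apart in Cyp7b1, 1.72-fold in Cyp8b1, 6.27-fold in Akr1d1 and 2.95-fold in Cyp7a1.

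Hep-Org held far lower levels of the pathway than liver. The Hep-Org mean was 58.0-fold lower than that of undamaged liver for Cyp27a1, 3468-fold for Cyp7b1, 238-fold for Akr1d1, 643-fold for Slc27a5, 34.5-fold for Baat and 12.6-fold for Amacr. The Cyp7b1 fold rests on 6 and 22 recovered reads in Hep-Org, near the floor, and was 1229-fold against 14 to 21 d. Cyp7a1 and Cyp8b1, with 0 reads in both Hep-Org libraries, were at least 1657-fold and at least 4735-fold lower, set against 3 reads in the Hep-Org library with the higher floor (0.0164 and 0.0352 FPKM). The other tested enzymes were above 3 reads in both Hep-Org libraries, with Akr1d1 at 10 and 40 reads and Slc27a5 at 91 and 117 reads. Amacr stood at 2.83 ± 0.916 FPKM and Baat at 3.12 ± 1.18 FPKM (SD, n = 2), and Cyp27a1 at 5.66 ± 0.336 FPKM was the highest of the 9.

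In limma, 7 of 8 enzymes were called lower in Hep-Org than in undamaged liver, and 13.2% of all tested genes. The differences were -8.35 for Cyp7b1 (SE 1.10, adjusted p = 0.000139), -8.25 for Slc27a5 (SE 0.40, adjusted p = 1.19e-07), -7.34 for Cyp8b1 (SE 1.56, adjusted p = 0.00375) and -5.62 for Cyp27a1 (SE 0.47, adjusted p = 3.74e-06). Akr1d1 at -4.69 (adjusted p = 0.000761), Baat at -4.67 (adjusted p = 3.22e-06) and Amacr at -3.19 (adjusted p = 4.44e-05) were called as well. Cyp7a1 stood at -4.63 (SE 1.67, adjusted p = 0.0534) and missed the threshold, which it passed with a pseudocount of 0.1 (adjusted p = 0.0161 in limma), without the submission term (adjusted p = 0.0414) and after rescaling (adjusted p = 0.0427). Against 14 to 21 d all 8 were called lower, beside 13.4% of all tested genes, with differences between -7.71 for Slc27a5 (adjusted p = 6.43e-08) and -3.81 for Amacr (adjusted p = 3.8e-06). Cyp7a1 was called there at -5.25 (SE 1.51, adjusted p = 0.0171), and lost the call with limma-voom (adjusted p = 0.0735) and without either Hep-Org library, 14 d replicate 1 or 21 d replicate 1 (adjusted p up to 0.0935). The medians over the enzymes were -5.15 against undamaged liver and -5.56 against 14 to 21 d, where those of all tested genes were -0.03 and -0.02. For all 8 tested enzymes both Hep-Org libraries were below all 18 liver libraries, as for 16.0% of tested genes. The Hep-Org libraries and undamaged liver belong to the first submission, so that comparison lies within it.

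FPKM summed to 167676 and 184765 in the Hep-Org libraries and to 326835 to 988797 in liver. Rescaling every library to the same sum moved the median difference over all tested genes to 1.29 against undamaged liver and to 0.97 against 14 to 21 d. All 8 enzymes were called lower after this rescaling too, at -7.62 to -1.54 against undamaged liver, where Amacr was the smallest (adjusted p = 0.0492 in limma), and at -7.04 to -2.81 against 14 to 21 d. The rescaled fit called 9014 of 14385 tested genes in either direction against undamaged liver, and 7732 against 14 to 21 d. Its share called lower is not given here, so its counts do not compare with the shares of the main fit. Hepatocyte markers summed to 5253 and 1417 FPKM in Hep-Org and to 21328 to 76557 FPKM in liver, with Alb at 3132 and 86.4 FPKM in Hep-Org and 12875 to 61188 FPKM in liver. Of 8 hepatocyte markers 7 were called lower, and Hpd was at 0 and 0.0369 FPKM in Hep-Org. Cholangiocyte markers summed to 4444 and 2729 FPKM in Hep-Org, most of it Spp1, and to 5.39 to 335 FPKM in liver, with 5 of 5 tested called higher. Trf had 247 and 243 FPKM in Hep-Org, above undamaged replicate 1 (234 FPKM). Apob had 114 and 120 FPKM in Hep-Org, above 6 h replicate 1 (103 FPKM). The summed markers of the labelled cell type were thus low in Hep-Org, but Trf and Apob overlapped liver. The part of cell identity in the enzyme levels was not tested. The 2 Hep-Org libraries also differed in Xist, at 0.00128 FPKM in replicate 1 and 25.3 FPKM in replicate 2.

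**Figure D4:**
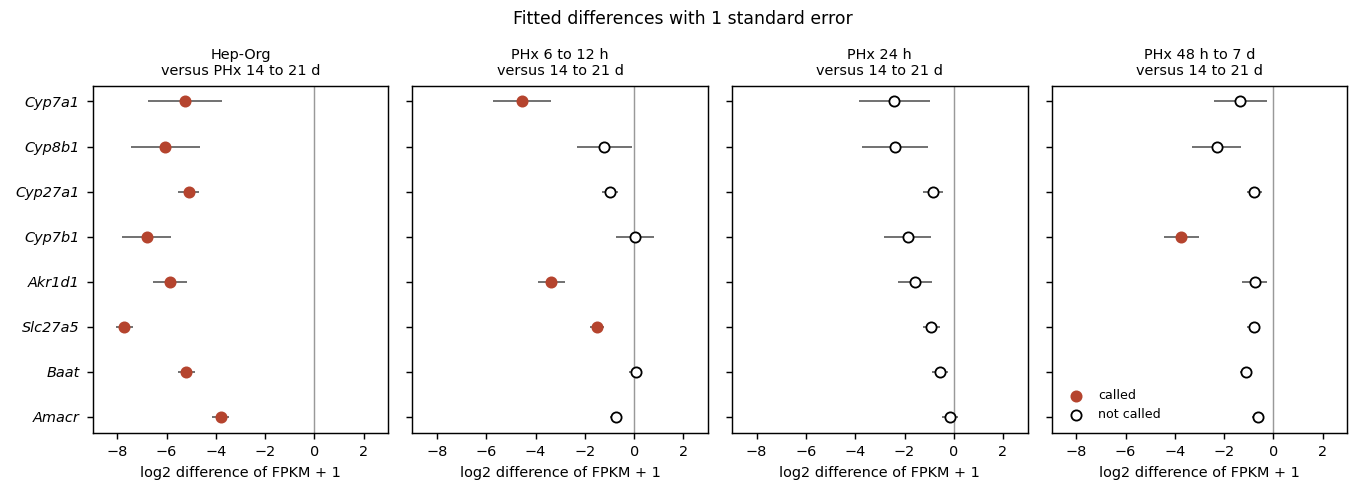
Fitted differences of the 8 tested enzymes from 14 to 21 d after PHx, on the log2(FPKM + 1) scale with bars of 1 SE, for Hep-Org, 6 to 12 h, 24 h and 48 h to 7 d; red marks called differences. All 8 are called in Hep-Org (-7.71 to -3.81), Cyp7a1, Akr1d1 and Slc27a5 at 6 to 12 h, none at 24 h, and Cyp7b1 from 48 h to 7 d.

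Of 11 further enzymes of the pathway, 10 were tested. At 6 to 12 h against 14 to 21 d, 3 of these 10 were called lower and 1 higher, with a median of -0.75, beside 7.07% of all tested genes called lower and a median of 0.03. With single libraries left out 1 to 3 were called lower and 0 to 2 higher. Cyp39a1, the hydroxylase of another oxysterol, had 2.69, 0.636, 1.26 and 2.24 FPKM at 6 to 12 h, against 20.2, 7.52, 5.61 and 8.27 FPKM at 14 to 21 d, a limma difference of -1.99 (SE 0.39, adjusted p = 0.0031). The groups did not overlap. Cyp2c70, which makes the muricholic acids of mice, had 183, 133, 151 and 129.8 FPKM at 6 to 12 h, against 378, 728, 465 and 695 FPKM at 14 to 21 d, a difference of -1.88 (SE 0.48, adjusted p = 0.0123) in limma without overlap. Abcd3, a peroxisomal transporter, was lower by limma at -1.13 (adjusted p = 0.0313) and Acot8, a peroxisomal thioesterase, higher at 1.10 (adjusted p = 0.0419). No further enzyme was called higher with no filter, after rescaling or without the first replicates of 6 h and 12 h, so that the call of Acot8 was lost there. Against undamaged liver at 6 to 12 h, 2 of 10 were called lower beside 6.02% of all tested genes, Cyp2c70 at -2.89 (adjusted p = 0.0119) and Cyp39a1 at -1.66 (adjusted p = 0.0465) in limma. With no filter, after rescaling, in liver libraries alone or without the first replicates of 6 h and 12 h, 1 of 10 was called lower. From 48 h to 7 d against 14 to 21 d 1 of 10 was called in limma, Scp2, the peroxisomal thiolase of the side chain, at -1.60 (SE 0.30, adjusted p = 0.0271), beside 0.395% of all tested genes called lower. With no filter, after rescaling and in liver libraries alone 0 of 10 were called, and 0 to 1 with single libraries left out. In Hep-Org 7 of 10 were called lower than undamaged liver, beside 13.2% of all tested genes, with a median of -3.02 that included Cyp2a12 at -8.16 and Cyp2c70 at -7.12. After rescaling to the same sum, 4 of the 10 were called lower, in a fit that called 9014 of 14385 genes in either direction. Cyp39a1 had 5.14 and 3.84 FPKM in Hep-Org and 6.12 and 8.46 FPKM in undamaged liver, a limma difference of -0.59 (adjusted p = 0.45).

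Of 13 regulators, 2 were called lower at 6 to 12 h against 14 to 21 d and 0 higher, with a median of -0.00, beside 7.07% of all tested genes called lower and a median of 0.03. Without the first replicates of 6 h and 12 h 1 of the 13 was called lower. Nr0b2 had 0.408, 3.56, 0.0399 and 5.06 FPKM at 6 to 12 h, against 31.5, 32.1, 71.1 and 29.3 FPKM at 14 to 21 d, a limma difference of -3.96 (SE 0.83, adjusted p = 0.0045). Klb, the co-receptor of Fgfr4, had 0.192, 1.11, 0.625 and 0.112 FPKM at 6 to 12 h, against 8.31, 3.14, 4.22 and 3.42 FPKM at 14 to 21 d, a limma difference of -1.90 (SE 0.33, adjusted p = 0.0016). Both groups were apart for both genes, and both were low at the times at which Cyp7a1 was low. Against undamaged liver, Fgfr4 at -1.72 (adjusted p = 0.0104) and Klb at -1.62 (adjusted p = 0.0267) were called lower at 6 to 12 h in limma, 2 of 13 regulators beside 6.02% of all tested genes. After rescaling to the same sum 0 were called, and 1 with no filter or without the first replicates of 6 h and 12 h.

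In Hep-Org 6 of 13 regulators were called lower than undamaged liver and 0 higher, with a median of -1.37, beside 13.2% of all tested genes called lower and a median of -0.03. Rescaling to the same sum left 2 lower and made 2 higher, in a fit that called 9014 of 14385 genes in either direction. Nr1h4 had 2.37 and 5.48 FPKM in Hep-Org and 37.7 and 44.1 FPKM in undamaged liver, a limma difference of -3.16 (adjusted p = 0.000173). Nr5a2, which binds the CAAGGNCA type of motif shown for Cyp8b1, had 8.39 and 8.81 FPKM in Hep-Org and 9.77 and 4.77 FPKM in undamaged liver, and did not pass in limma (0.28, adjusted p = 0.534). Fgfr4 had 12.5 and 7.52 FPKM in Hep-Org and 17.1 and 21.0 FPKM in undamaged liver (-0.90, adjusted p = 0.102 in limma). Klb was lower at -2.08 (adjusted p = 0.00488 in limma).

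The 3 genes most like each enzyme over the 18 liver libraries, by Pearson's r of log2(FPKM + 1), are given as a description, since the libraries share their scaling. For Cyp7a1 they were Nxpe2 (r = 0.858), Cnmd (r = 0.833) and Tns3 (r = 0.813). For Cyp8b1 they were the carboxylesterases Ces3b (r = 0.830) and Ces3a (r = 0.809), and Hgfac (r = 0.776). Cyp27a1 was nearest to Ctsf (r = 0.865), Serpina1d (r = 0.858) and Hgfac (r = 0.853). Cyp7b1 was nearest to the major urinary protein genes Mup21 (r = 0.926), Mup11 (r = 0.920) and Mup12 (r = 0.917), whose near-identical copies make each value uncertain. Mup transcripts are also known to be higher in male mouse liver, and the sex-linked pattern runs through these libraries.

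Akr1d1 was nearest to Maob (r = 0.965), Sqor (r = 0.951) and Slc25a23 (r = 0.947), and Slc27a5 to Pm20d1 (r = 0.964), Sardh (r = 0.955) and Slc25a44 (r = 0.953). Baat was nearest to Las1l (r = 0.855), the Y-linked Ddx3y (r = 0.850) and Mars (r = 0.850). Amacr was nearest to the mitochondrial genes Ndufs1 (r = 0.914), Hspa9 (r = 0.900) and Hspd1 (r = 0.900). Among the enzymes themselves r was highest for Cyp27a1 with Slc27a5 (0.784), followed by Cyp8b1 with Cyp27a1 (0.754) and Cyp8b1 with Cyp7b1 (0.734), and lowest for Cyp7b1 with Akr1d1 (-0.338).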

How the data were processed

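Mouse hepatocyte and organoid RNA was deposited as 1 table of FPKM (fragments per kilobase of transcript per 1000000 mapped fragments) with 54532 genes and 20 libraries. The authors derived these FPKM values from HISAT2 2.0.5 alignments to mm10, per the submitters' processing notes. For the counting tool, annotation and strandedness no statement was found in the sources used here. GENCODE M21 (GRCm38) gave symbols, positions and exon lengths for 54409 Ensembl identifiers.

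Read numbers were recovered from FPKM times exon length: among low values (20 reads or fewer), 97.9% to 98.7% came within 0.05 reads of a whole number. Depth so recovered was 13.6 to 41.4 M reads (M, 1000000) in a library, and 0.477 to 1.94 times the size implied by 1 read's worth, so some scaling between libraries by the authors was assumed. A count of 0 allows up to 3 reads. Such limits cover counting error only.

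The 13162 genes that reached 1 FPKM in 2 or more libraries were tested on log2(FPKM + 1) by limma 3.58.1 in R 4.3.3, with trend and robust options (residual degrees of freedom 9, prior 3.29). All 20 libraries entered the fit, with a mean for each group and a submission term. From the series text, the second replicates of the PHx times (8 libraries) were taken as the second submission and the remaining 12 libraries as the first. The submission term reached an adjusted p under 0.05 in 7 genes, none of them a bile acid enzyme. Log2 differences understate changes of low genes because of the pseudocount. Adjustment was by the Benjamini-Hochberg method over all tested genes. Called means an adjusted p under 0.05 together with an absolute log2 difference, or over the 8 times a spread of fitted means, of 1 or more. The submission term separates the first from the second PHx replicates, and replicate numbers were not otherwise used to pair libraries. Replicate differences correlated at -0.381 to 0.472 over 28 pairs of times, with 4 over 0.1. The procedure was tested on simulated data.

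The 9 enzymes, the lists, the windows of times and the rule for named genes were chosen with earlier results of these data known. All 9 enzymes are described. From 11 further enzymes and 13 regulators, up to 4 called genes per comparison with the largest statistics are named, together with Nr0b2, Nr1h4, Nr5a2, Fgfr4, Klb and Cyp2c70. Dbp was named after its values were seen. A further motif searched in the promoters is not reported here. The 3 genes most like each enzyme were ranked by Pearson's r. Alternatives were another pseudocount, no filter, rescaling to equal FPKM sums, limma-voom on the recovered reads, no submission term, liver libraries alone, fewer times, and each library left out. Leaving out the first replicates of 6 h and 12 h, the libraries with the most erythroid transcripts, was chosen after seeing the data. Python 3.11.15 with numpy 2.4.6 and pandas 2.3.3 read the table, and matplotlib 3.10.9 drew the figures.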

Additional observations from a re-analysis of the deposited data

How the results depend on the processing

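Which enzymes passed depended on settings. Counts of enzymes called that moved by over 1.5 times were these. Over the PHx time course (3 called), 0 were called with no filter, in liver libraries alone, with 6, 12 and 24 h and 14 and 21 d only, and without the first replicates of 6 h and 12 h, an alternative chosen after seeing the data. At 6 to 12 h against undamaged liver (2), 1 was called with no filter, after rescaling to the same FPKM sum and in liver libraries alone. In 48 h to 7 d libraries against undamaged liver (1), 0 were called with no filter, after rescaling and with limma-voom. In 48 h to 7 d libraries against 14 to 21 d (1), 0 were called with no filter, in liver libraries alone and without the first replicates of 6 h and 12 h. Without the replicate block for submission, 2 were called in each of these 48 h to 7 d comparisons, 4 over the time course and 3 at 6 to 12 h against undamaged liver. The cause was not tested.

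With each library left out, the count of enzymes called ran over 0 to 4 for the time course. Against undamaged liver it ran over 1 to 2 at 6 to 12 h, 0 to 2 at 24 h, 0 to 1 from 48 h to 7 d, 0 to 0 at 14 to 21 d and 7 to 8 in Hep-Org. Against 14 to 21 d it ran over 2 to 4 at 6 to 12 h, 0 to 0 at 24 h, 0 to 2 from 48 h to 7 d and 7 to 8 in Hep-Org.

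Signs turned for uncalled enzymes. After rescaling, the difference from undamaged liver became 0.065 for Amacr at 6 to 12 h, 0.28 for Baat at 24 h, 0.023 for Baat and 0.57 for Amacr from 48 h to 7 d, and 0.17 for Cyp27a1 and 0.15 for Slc27a5 at 14 to 21 d. At 6 to 12 h against 14 to 21 d it became -0.44 for Cyp7b1 and -0.42 for Baat. With limma-voom Baat became 0.011 at 24 h and Amacr 0.0085 from 48 h to 7 d, against undamaged liver. Without the first replicates of 6 h and 12 h, Cyp7b1 became -0.43 at 6 to 12 h against 14 to 21 d.

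With each library left out, Amacr ranged from -0.61 to 0.37 at 6 to 12 h against undamaged liver. At 24 h the ranges were -4.42 to 1.58 for Cyp7a1, -6.70 to 0.22 for Cyp8b1, -1.67 to 0.87 for Akr1d1, -0.51 to 0.45 for Baat and -0.039 to 0.95 for Amacr. From 48 h to 7 d they were -1.96 to 0.044 for Cyp7a1, -0.86 to 1.69 for Akr1d1 and -0.52 to 0.46 for Amacr, and at 14 to 21 d -0.13 to 1.36 for Cyp7a1 and -0.10 to 2.45 for Akr1d1. Against 14 to 21 d they were -0.33 to 0.42 for Cyp7b1 and -0.011 to 0.15 for Baat at 6 to 12 h. At 24 h they were -5.41 to 0.59 for Cyp7a1, -5.84 to 1.08 for Cyp8b1, -4.31 to 0.56 for Cyp7b1 and -0.34 to 0.020 for Amacr.

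Counts of all genes called also moved by over 1.5 times. The time course called 1252 genes, against 543 with no filter and 681 after rescaling. The 6 to 12 h comparison with undamaged liver called 1222, against 637 and 364. The 48 h to 7 d comparison with undamaged liver called 114, against 60 with no filter, 71 after rescaling, 69 with limma-voom and 268 without the block, and that with 14 to 21 d called 89, against 58 with no filter. The 6 to 12 h comparison with 14 to 21 d called 1813, against 2775 with limma-voom. At 24 h against undamaged liver 0 genes were called, against 30 without the block, 4 without the first replicates of 6 h and 12 h, and 1 each with pseudocount 0.1 and with no filter. At 14 to 21 d against undamaged liver 0 were called, against 7 without the block and 4 without those replicates. At 24 h against 14 to 21 d 5 were called, against 12 without the block, 1 without those replicates, and 0 with pseudocount 0.1, after rescaling, with limma-voom and in liver libraries alone. The rescaled fit called 9014 genes in Hep-Org against undamaged liver where 3095 were called, and 7732 against 14 to 21 d where 3263 were called. Replicate differences correlated above 0.1 in 4 of 28 pairs of times, with correlations of -0.381 to 0.472. First and second PHx replicates still differed in their low values. Genes with values above 0 and up to 20 recovered reads numbered 6800 to 8939 in the first replicates and 3748 to 5383 in the second.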
